A study of Arabidopsis thaliana with 30 samples.

Results

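YFP-negative cells (YFP-NEG) sorted from inflorescences of Arabidopsis thaliana were compared with all-sorted cells (ALL-SORT), a sort whose label names no YFP class. The comparison asks which transcripts are depleted, and which make up a larger share, once cells with an active SHP2 reporter have been left out. The libraries were chosen by their labels, 4 for YFP-NEG and 4 for ALL-SORT, and libraries with the same biological replicate number were taken as pairs. They are 8 of the 15 libraries of the study and 16 of its 30 sequencing runs, since each library was run in 2 lanes.

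Plants of both groups carried pSHP2-GAL4 and pUAS-3xYpet, and were the offspring of a cross with the line pAP1-AP1::GR; ap1; cal. The SHP2 promoter thus drives the yeast activator GAL4, which in turn switches on 3 copies of the yellow fluorescent protein Ypet behind its UAS binding sites. The background, ap1; cal; pAP1::AP1:GR, has mutations in both genes and carries AP1 joined to a glucocorticoid receptor. It was shared by all groups, controls included, so reads of AP1 can come from the mutant gene or from the transgene and cannot be told apart. No steroid treatment, plant age or number of plants is stated in the sources used here, and p-values measure only the spread between these libraries. YFP-positive cells (YFP-POS, 3 libraries) and whole frozen inflorescences (NO-SORT, 4 libraries) are cited only for their levels.

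Total counts were 13422821 to 15774591 in the YFP-NEG libraries and 12644721 to 21027032 in the ALL-SORT libraries, the largest being ALL-SORT 4. Levels are given as CPM, the counts scaled to a common library total, after TMM scaling. They are not divided by transcript length, so they compare libraries and not genes. Pairs of YFP-NEG libraries had correlations of log2 CPM across genes of 0.977 to 0.979, and pairs of ALL-SORT libraries 0.944 to 0.978. ALL-SORT 4 stood apart from the other ALL-SORT libraries in the direction of NO-SORT, with a correlation of 0.978 to NO-SORT 1 and of 0.953 to 0.957 to NO-SORT 2 to 4. Its correlations to ALL-SORT 1 to 3, 0.944 to 0.963, were below that to NO-SORT 1, and whether libraries were exchanged or mixed was not tested. Results that differ without it are therefore given both ways. In a fit with pairs, leaving out ALL-SORT 4 also takes its partner YFP-NEG 4 out of the comparison.

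SHP2 itself checks the labels, because its promoter drives the reporter. SHP2 had 1.16, 2.21, 1.51 and 2.44 CPM in YFP-NEG 1 to 4, against 7.58, 11.6, 6.90 and 6.96 CPM in ALL-SORT 1 to 4. All 4 YFP-NEG libraries lay below all 4 ALL-SORT libraries, which is the direction the labels give. The log2 fold change of YFP-NEG over ALL-SORT was -2.17 ± 0.25 (SE; adjusted p = 0.00797, edgeR quasi-likelihood test with pairs). SHP2 had a mean of 37.6 ± 2.91 CPM in the 3 YFP-POS libraries and of 6.41 ± 1.78 CPM in the 4 NO-SORT libraries (SD). The SHP2 locus overlaps AT2G42835, and whether the counting used the strand is not given in the sources used here.

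SHP2 and its close relative SHP1 encode MADS-domain transcription factors. In the gynoecium, the female organ of the flower, they act in the medial domain, the strips of tissue where the carpels meet. This carpel margin meristem gives rise to the placenta, ovules, septum, style, stigma and transmitting tract, and later SHP1 and SHP2 pattern the margins at which the fruit opens. A YFP-negative sort is meant to leave out this tissue, while sepals, petals, stamens, carpel walls, stem and the meristems themselves remain. In bulk RNA a smaller number of cells of a type and less RNA per cell cannot be told apart.

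Upstream windows of 4 genes are shown, read from the RefSeq assembly TAIR10.1 as the 250 bases before the annotated gene start, 5′ to 3′ along the gene. The SHP2 window is given because this gene's promoter drives the sorted reporter, though the length of promoter used in the transgene is not given in the sources used here. It lies at chr2:17819864-17820113 on the plus strand. SPT is shown as a carpel margin gene whose window holds a G-box, CACGTG, the core bound by many basic helix-loop-helix proteins; its window is chr4:17413833-17414082 on the plus strand. FDH and TMM are the epidermal genes among those lower in YFP-NEG whose windows hold an L1 box, TAAATGCA or TAAATGTA, the element bound by the epidermal homeodomain proteins ATML1 and PDF2. Their windows are chr2:11173279-11173528 and chr1:30129650-30129899, both on the minus strand. Capitals mark a G-box or an L1 box, and both motifs were searched on both strands in all 4 windows.
SHP2: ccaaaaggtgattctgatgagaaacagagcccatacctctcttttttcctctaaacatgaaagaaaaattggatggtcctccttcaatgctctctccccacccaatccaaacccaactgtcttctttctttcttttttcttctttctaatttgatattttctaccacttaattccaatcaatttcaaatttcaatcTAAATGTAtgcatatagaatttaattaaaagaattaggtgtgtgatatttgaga
SPT: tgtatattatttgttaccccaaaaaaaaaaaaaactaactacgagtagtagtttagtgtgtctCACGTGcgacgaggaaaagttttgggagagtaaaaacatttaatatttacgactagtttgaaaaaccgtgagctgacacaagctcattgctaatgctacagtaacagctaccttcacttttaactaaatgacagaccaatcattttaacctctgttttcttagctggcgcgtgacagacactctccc
FDH: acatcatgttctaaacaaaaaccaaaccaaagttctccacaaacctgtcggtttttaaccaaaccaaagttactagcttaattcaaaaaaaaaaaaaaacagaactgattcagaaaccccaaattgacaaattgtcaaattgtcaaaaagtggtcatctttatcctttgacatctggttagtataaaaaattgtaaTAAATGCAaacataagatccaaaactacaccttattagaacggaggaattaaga
TMM: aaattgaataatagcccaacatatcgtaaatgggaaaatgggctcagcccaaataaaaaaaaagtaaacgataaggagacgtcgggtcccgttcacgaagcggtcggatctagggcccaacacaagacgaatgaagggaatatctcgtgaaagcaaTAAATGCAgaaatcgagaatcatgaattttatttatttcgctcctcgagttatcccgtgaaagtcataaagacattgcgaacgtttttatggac
The G-box lies 187 bases before the start of SPT, and the L1 box lies 54 bases before the start of FDH and 94 before that of TMM. The SHP2 window also holds an L1 box, 54 bases before the start. Of 19 tested carpel margin genes, 2 had a G-box in the window (10.5%), SPT and BEE1, against 7.65% of the 18089 tested genes with a window and 6.49% of all 27437 protein-coding genes with one. Of 15 tested epidermal genes, 3 had an L1 box (20%), and of 28 tested cuticle genes 1 did (3.57%), against 4.51% of the tested genes and 4.49% of all windows. A match describes these letters only and shows no binding.

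Across the 18658 genes tested, 3522 (18.9%) were called at an adjusted p under 0.05. Of these, 2370 (12.7% of those tested) were lower in YFP-NEG and 1152 (6.17%) were higher, and the log2 fold change had a median of 0.03 over all genes. At least a 2-fold change was seen in 336 called genes, 217 of them lower and 119 higher. Without ALL-SORT 4, 4555 of 18763 genes were called (24.3%), 2880 lower (15.3%) and 1675 higher (8.93%). Called in both fits with the same direction were 2241 lower and 996 higher genes. Whether the groups overlapped was looked at only for the genes followed here. The share without overlap over all genes is therefore not known, and separation only describes a gene. The split by direction depended on the scaling: genes higher in YFP-NEG made up 32.7% of calls with TMM, 38.4% with RLE, 47.0% after upper-quartile scaling and 46.0% when scaled by library totals.

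The number of calls rested on the third pair. Without YFP-NEG 3 the same test called 1 gene, and without ALL-SORT 3 it called 2, although 4547 and 4576 genes still had an unadjusted p under 0.05. It called 762 genes without YFP-NEG 1, 1727 without YFP-NEG 2, 402 without ALL-SORT 1 and 1457 without ALL-SORT 2, against 4419 without YFP-NEG 4. In a fit with pairs, the partner of a library left out no longer informs the difference between the groups. The 2 fits of each pair are therefore nearly the same check and are not independent. For SHP2 the log2 fold change was -2.41 both without YFP-NEG 4 and without ALL-SORT 4. Fold changes moved less: all 108 of the 129 genes followed here that were called kept their direction in each of the 8 fits that left out a library. CRC was the single gene of these called in all 8 fits. The calls of these 108 genes are lost without YFP-NEG 3 and without ALL-SORT 3, except CRC in both fits and CEL2 without ALL-SORT 3. For SHP2 the fold change without each library ranged between -2.41 and -2.0, and the adjusted p reached 0.0900.

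Most tested genes of the carpel margin were lower in YFP-NEG. Of 22 genes on this list, 19 were tested, 15 were lower and none was higher, with a median log2 fold change of -0.78 against 0.03 over all genes. This and the other gene lists were chosen with earlier results of these data known. Their shares set beside those of all genes therefore only describe the lists. Over all genes tested, 12.7% were lower. Their summed level was 311 to 329 CPM in YFP-NEG, against 549 to 653 CPM in ALL-SORT and 1653 to 2172 CPM in YFP-POS. Without ALL-SORT 4, 17 of the 19 were lower and the median was -0.94. Leaving out other libraries, those of the third pair aside, gave 6 to 17 lower genes. Without YFP-NEG 3 or without ALL-SORT 3, 1 gene of this list was lower, and no gene of the other lists was called. The 4 tested genes that were not called with all libraries were NGA2, STY2, SHI and REM35. Of these, SHI and REM35 were called lower without ALL-SORT 4. IND, HAF and BEE3 had too few counts to be tested.

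The HECATE genes, basic helix-loop-helix factors needed for stigma and transmitting tract, had the largest fold differences of this list. HEC2 had 0.710, 1.70, 0.755 and 2.3 CPM in YFP-NEG 1 to 4, against 17.1, 22.3, 11.9 and 9.29 CPM in ALL-SORT 1 to 4 (log2 fold change -3.47 ± 0.38, adjusted p = 0.00797). HEC1 had 0.581, 1.03, 0.755 and 0.740 CPM in YFP-NEG 1 to 4, against 8.59, 10.6, 3.45 and 3.86 CPM in ALL-SORT 1 to 4 (log2 fold change -2.97 ± 0.34, adjusted p = 0.00797). For both genes the groups were well separated, and ALL-SORT 3 and ALL-SORT 4 were the lowest of their group. HEC3 had 0.194, 0.516, 0.503 and 1.04 CPM in YFP-NEG 1 to 4, against 4.56, 8.18, 4.12 and 3.86 CPM in ALL-SORT 1 to 4 (log2 fold change -3.18 ± 0.43, adjusted p = 0.00797), and ALL-SORT 2 was the highest. The YFP-NEG values of HEC3 rest on counts as low as 3. Without ALL-SORT 4 the log2 fold changes were -4.04, -3.17 and -3.75 for HEC2, HEC1 and HEC3.

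SHP1, the close relative of SHP2, had 1.42, 3.02, 2.14 and 5.85 CPM in YFP-NEG 1 to 4, against 24.2, 28.3, 12.8 and 12.5 CPM in ALL-SORT 1 to 4. The groups did not overlap, and YFP-NEG 4 was the highest of its group. The log2 fold change was -2.66 ± 0.42 (adjusted p = 0.00851), and -3.28 without ALL-SORT 4 (adjusted p = 1.93e-06). SHP1 overlaps AT3G58790. The other MADS-domain genes of carpel identity did not follow. AGAMOUS (AG), which specifies stamens and carpels, had 53.7, 46.5, 49.8 and 60.9 CPM in YFP-NEG 1 to 4, against 53.5, 53.3, 57.3 and 50.1 CPM in ALL-SORT 1 to 4 (log2 fold change -0.02 ± 0.12, adjusted p = 0.924). The AG ranges overlapped, and the sign of this small difference changed with the scaling. Of 9 genes on the list of carpel MADS factors, 7 were tested, SHP1 and SHP2 were lower and the other 5, AG and the SEPALLATA genes SEP1, SEP2, SEP3 and SEP4, were not called. SEP1 alone of these was called, as higher in YFP-NEG, under upper-quartile and total-count scaling.

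CRABS CLAW (CRC), a YABBY factor of nectaries and carpels, had 16.5, 22.7, 12.1 and 19.7 CPM in YFP-NEG 1 to 4, against 75.0, 85.7, 51.5 and 84.5 CPM in ALL-SORT 1 to 4. The groups were far apart and ALL-SORT 4 was among the high values. Its log2 fold change of -2.06 ± 0.11 had an adjusted p of 3.44e-04, the smallest of the genes named here, and lay between -2.12 and -2.01 when each library was left out, with adjusted p-values of 2.59e-07 to 0.0281. CRC overlaps AT1G69170. STYLISH1 (STY1), a regulator of style formation and of auxin synthesis genes, had 4.84, 5.82, 4.47 and 5.11 CPM in YFP-NEG 1 to 4, against 24.1, 30.4, 18.9 and 11.7 CPM in ALL-SORT 1 to 4 (log2 fold change -2.0 ± 0.22, adjusted p = 0.00797). No STY1 values overlapped, and ALL-SORT 4 was the lowest of its group. The related genes STY2 (-0.51, adjusted p = 0.107) and SHI (-0.57, adjusted p = 0.116) were not called with all libraries. Without ALL-SORT 4, SHI was called lower (-0.81, adjusted p = 0.0155) and STY2 was not called (-0.29, adjusted p = 0.265).

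SPATULA (SPT), which works with the HECATE proteins in the carpel margin, had 35.8, 38.6, 33.1 and 36.1 CPM in YFP-NEG 1 to 4, against 67.4, 77.2, 64.2 and 44.1 CPM in ALL-SORT 1 to 4. The YFP-NEG values were close together, and ALL-SORT 4 was the lowest ALL-SORT library without reaching them. The log2 fold change was -0.78 ± 0.14 (adjusted p = 0.0116). ALCATRAZ (ALC), a close relative of SPT that acts in the opening of the fruit, differed less, at -0.36 ± 0.11 (adjusted p = 0.0459), and was not called with RLE, upper-quartile or total-count scaling. Of the NGATHA genes, B3-domain regulators of style and stigma, NGA1 (-0.66), NGA3 (-0.70) and NGA4 (-0.72) were lower on the log2 scale and NGA2 (-0.37, adjusted p = 0.141) was not called. NO TRANSMITTING TRACT (NTT), a zinc finger gene of the transmitting tract, had 3.42, 4.05, 5.09 and 4.66 CPM in YFP-NEG 1 to 4, against 7.58, 6.89, 9.59 and 8.86 CPM in ALL-SORT 1 to 4, with no overlap (log2 fold change -0.93 ± 0.18, adjusted p = 0.0146). LRP1, a relative of STY1, was lower, at -0.67 ± 0.13 (adjusted p = 0.0145). BEE1, a basic helix-loop-helix gene that brassinosteroids induce, was lower, at -2.18 ± 0.40 (adjusted p = 0.0122) on counts as low as 3.

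The REPRODUCTIVE MERISTEM genes encode B3-domain proteins expressed in reproductive meristems. REM34 had 58.3, 43.6, 55.4 and 56.9 CPM in YFP-NEG 1 to 4, against 137, 96.4, 100.2 and 105 CPM in ALL-SORT 1 to 4 (log2 fold change -1.02 ± 0.12, adjusted p = 0.00797). REM36 had 15.4, 12, 13.4 and 18.4 CPM in YFP-NEG 1 to 4, against 39.6, 30.7, 29.4 and 26.0 CPM in ALL-SORT 1 to 4 (log2 fold change -1.08 ± 0.17, adjusted p = 0.00836). Neither gene had overlapping groups. REM35, between them on the list, differed by -0.42 (adjusted p = 0.0971) and was called lower without ALL-SORT 4 (-0.52, adjusted p = 0.0365). The REM35 locus overlaps that of REM34, so reads of this pair may have been shared. The plot of carpel genes by library shows these separations beside AG and AINTEGUMENTA (ANT), a growth regulator of all floral organs, whose groups overlapped (ANT log2 fold change -0.13 ± 0.12, adjusted p = 0.444).

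**Figure D1:**
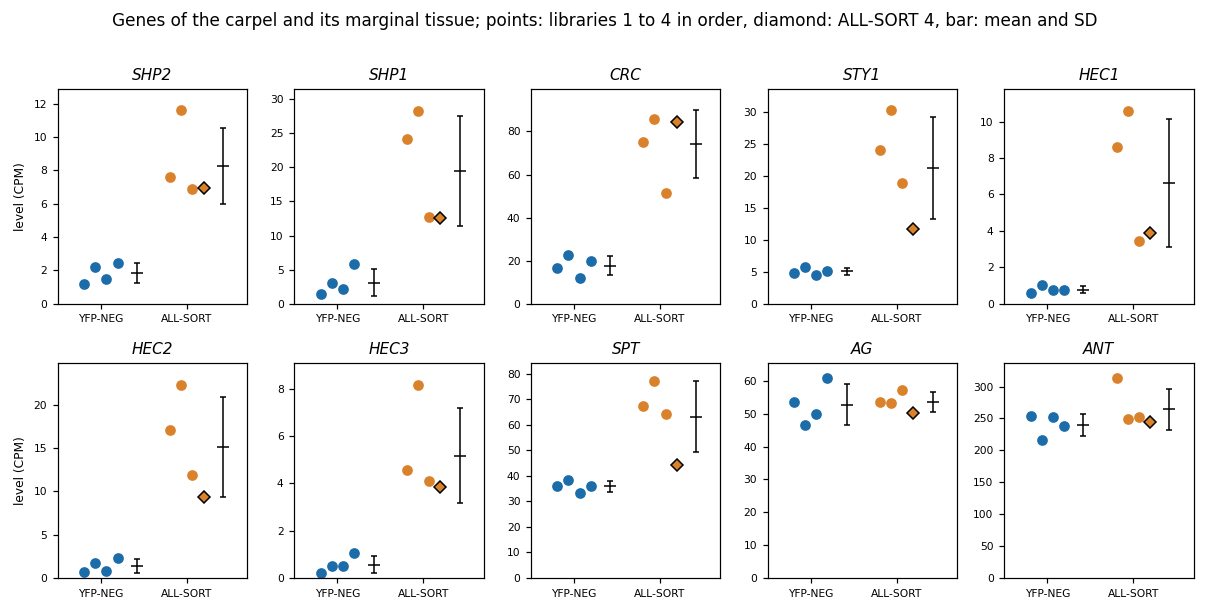
Level in CPM (linear axes from 0) of 10 genes in each of the 4 YFP-NEG (left, blue) and 4 ALL-SORT (right, orange) libraries, in the order of replicate number. Horizontal marks with bars give mean and SD, and a diamond marks ALL-SORT 4. The groups are apart for SHP2, SHP1, CRC, STY1, HEC1, HEC2, HEC3 and SPT, and overlap for AG and ANT.

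Most tested genes of auxin synthesis and transport were lower in YFP-NEG. The list held 18 genes, of which 17 were tested, 13 were lower in YFP-NEG and none was higher, with a median log2 fold change of -0.77 (-0.81 without ALL-SORT 4, with 14 lower). The share lower among all genes tested was 12.7%. Fits without one of the libraries outside the third pair gave 4 to 14 lower genes. The summed level was 478 to 558 CPM in YFP-NEG, against 807 to 916 CPM in ALL-SORT.

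For synthesis, TAA1, the tryptophan aminotransferase of the main auxin pathway, had 30.8, 35.8, 35.0 and 40.9 CPM in YFP-NEG 1 to 4, against 69.6, 76.8, 64.3 and 57.8 CPM in ALL-SORT 1 to 4. All pairs and both ranges were apart (log2 fold change -0.90 ± 0.14, adjusted p = 0.00807). The flavin monooxygenase genes YUC4 (-0.84 ± 0.22, adjusted p = 0.0304) and YUC6 (-0.72 ± 0.17, adjusted p = 0.0226) were lower as well. YUC6 stood out in level: it averaged 8.64 ± 1.38 CPM in YFP-NEG (SD, n = 4) and 14.4 ± 2.40 CPM in ALL-SORT (SD, n = 4), but 4.68 ± 1.04 CPM in YFP-POS (SD, n = 3). ALL-SORT thus lay above both sorted fractions for YUC6.

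For transport, the uptake carrier LAX1 had 22.0, 29.3, 21.7 and 26.1 CPM in YFP-NEG 1 to 4, against 60.0, 78.2, 58.4 and 51.9 CPM in ALL-SORT 1 to 4 (log2 fold change -1.31 ± 0.12, adjusted p = 0.00687). Its groups did not overlap, and ALL-SORT 2 was the highest. The uptake carriers LAX2 (-0.65) and AUX1 (-0.75) and the efflux carriers PIN3 (-0.84) and PIN7 (-0.84) were lower too. The kinase PINOID (PID), which sets PIN polarity, was lower, at -0.64 ± 0.13 on the log2 scale (adjusted p = 0.0169). Its relatives WAG1 (-1.54 ± 0.38) and WAG2 (-2.01 ± 0.40) had larger differences from few reads, with counts as low as 6 and 5.

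Boundary and organ polarity genes were lower in YFP-NEG in part. Of 13 placenta and ovule genes, 12 were tested and 4 were lower, CUC1, CUC2, RPL and SEU, with a median of -0.34, and none was higher. Among all genes tested 12.7% were lower. The fits that left out a library outside the third pair gave 2 to 3 lower genes. CUC1, a NAC factor of organ boundaries and the carpel margin meristem, had 6.52, 9.58, 6.48 and 7.26 CPM in YFP-NEG 1 to 4, against 13.2, 16.4, 15.6 and 17.3 CPM in ALL-SORT 1 to 4, without overlap (log2 fold change -1.07 ± 0.16, adjusted p = 0.00797). CUC2 had 8.52, 12.8, 7.86 and 7.77 CPM in YFP-NEG 1 to 4, against 17.6, 17.0, 17.2 and 18.4 CPM in ALL-SORT 1 to 4, and YFP-NEG 2 was the highest of its group (log2 fold change -0.95 ± 0.17, adjusted p = 0.0115). REPLUMLESS (RPL), a homeodomain factor of the replum at the valve margins, was lower, at -0.87 ± 0.13 (adjusted p = 0.00807). SEUSS (SEU), a co-repressor partner that acts in ovule and margin development, was lower by a narrow margin (-0.42 ± 0.13, adjusted p = 0.04997) and was not called without ALL-SORT 4 (adjusted p = 0.0639) or without pairing (adjusted p = 0.0618).

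All 15 polarity genes were tested, and 9 were lower and none higher (median -0.58, and -0.52 with 9 lower without ALL-SORT 4). For comparison, 12.7% of all genes tested were lower. The fits without a library outside the third pair gave 3 to 9. Class III homeodomain-leucine zipper genes specify the upper (adaxial) side of organs. Among them PHV had 64.6, 68.6, 65.5 and 66.0 CPM in YFP-NEG 1 to 4, against 109, 109.9, 116 and 129.9 CPM in ALL-SORT 1 to 4 (log2 fold change -0.80 ± 0.11, adjusted p = 0.00797). PHB (-0.86), CNA (-0.88) and REV (-0.50) were lower as well. ETTIN (ETT), an auxin response factor that patterns the gynoecium and marks lower (abaxial) identity with ARF4, had 49.4, 59.0, 48.9 and 61.1 CPM in YFP-NEG 1 to 4, against 97.9, 104, 113 and 113 CPM in ALL-SORT 1 to 4. Neither PHV nor ETT had overlapping groups (ETT log2 fold change -0.97 ± 0.11, adjusted p = 0.00797). ARF4 (-0.67), the YABBY genes FIL (-0.58) and YAB3 (-0.51), and the leaf polarity regulator AS1 (-0.94) completed the 9, so the called genes include both organ sides. The 6 genes not called were YAB2, YAB5, AS2, KAN1, KAN2 and KAN3. YAB3 was not called without pairing (adjusted p = 0.0790), which left 8 lower, and its ranges overlapped.

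Many epidermal, cuticle and flavonoid genes were lower in YFP-NEG, and by their summed levels ALL-SORT 4 was the highest of the 8 libraries. The shares over all genes tested were 12.7% lower and 6.17% higher. All 15 epidermis and stomata genes were tested, 8 were lower and 1, FAMA, was higher, with a median of -0.87. Without ALL-SORT 4 the counts were the same and the median was -0.60, and without other libraries outside the third pair 4 to 8 were lower. Their summed level was 1094 to 1351 CPM in YFP-NEG, against 1592, 2042, 2080 and 4129 CPM in ALL-SORT 1 to 4, and 3231 to 4881 CPM in NO-SORT. ALL-SORT 4 was within the NO-SORT range, and its part in the size of the difference is given by the values without it.

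ATML1 and PDF2 encode the homeodomain factors of the outer cell layer. ATML1 had 51.0, 58.9, 64.8 and 55.2 CPM in YFP-NEG 1 to 4, against 80.2, 81.2, 117 and 193 CPM in ALL-SORT 1 to 4 (log2 fold change -0.93 ± 0.20, adjusted p = 0.0187, -0.66 without ALL-SORT 4). PDF1, a gene of that layer, had 337, 330.2, 309 and 356 CPM in YFP-NEG 1 to 4, against 554, 647, 719 and 1381 CPM in ALL-SORT 1 to 4 (log2 fold change -1.21 ± 0.20, adjusted p = 0.00903, -0.97 without ALL-SORT 4). Both were lower in YFP-NEG than in every ALL-SORT library, the lowest of which was ALL-SORT 1. FDH (KCS10 in RefSeq), whose window is shown above, had 114, 118, 122 and 125 CPM in YFP-NEG 1 to 4, against 173, 259.7, 282 and 469.8 CPM in ALL-SORT 1 to 4 (log2 fold change -1.21 ± 0.19, adjusted p = 0.00866). It encodes an enzyme of very-long-chain fatty acid synthesis in the epidermis and keeps organs from fusing. PDF2 (-0.97) and the receptor kinase ACR4 (-1.24) were lower too.

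CER1, an enzyme of alkane synthesis for surface wax, had 58.9, 81.2, 86.0 and 85.6 CPM in YFP-NEG 1 to 4, against 127, 175, 181 and 419 CPM in ALL-SORT 1 to 4 (log2 fold change -1.38 ± 0.21, adjusted p = 0.00807, -1.09 without ALL-SORT 4). Its groups did not overlap. A list of 29 cuticle genes, added after values had been seen and therefore only a description, had 28 tested and 14 lower (median -0.60). Without ALL-SORT 4 it had 13 lower and 3 higher (median -0.35). It had 6 lower without pairing, 9 to 11 with other scalings, and 3 to 13 without each library outside the third pair. BDG1, a hydrolase of cuticle formation, had 7.10, 10.8, 10.8 and 12.1 CPM in YFP-NEG 1 to 4, against 20.6, 32.5, 27.4 and 33.2 CPM in ALL-SORT 1 to 4. For BDG1 the 4 ALL-SORT libraries were alike, and the log2 fold change was -1.47 ± 0.12 with all libraries and -1.49 without ALL-SORT 4 (adjusted p = 0.00523 and 3.84e-05). BDG1 overlaps AT1G64660.

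Of the stomatal genes on the list, TMM was called lower and FAMA higher, while SPCH, MUTE, EPF1 and EPF2 were tested and not called. TOO MANY MOUTHS (TMM), a receptor of the stomatal lineage whose window is shown above, had 13, 11.3, 11.1 and 15.5 CPM in YFP-NEG 1 to 4, against 13.2, 24.8, 18.8 and 44.9 CPM in ALL-SORT 1 to 4. The ranges overlapped, ALL-SORT 4 was the highest, and the call (log2 fold change -0.87 ± 0.22, adjusted p = 0.0307) was lost without pairing (adjusted p = 0.0631). FAMA, the factor for guard cell differentiation, had 7.10, 12.3, 17.0 and 17.9 CPM in YFP-NEG 1 to 4, against 5.73, 6.15, 10.2 and 10.1 CPM in ALL-SORT 1 to 4. Each YFP-NEG library was above its own pair while the ranges overlapped. FAMA was higher by 0.74 ± 0.17 on the log2 scale (adjusted p = 0.0211, and 0.119 without pairing).

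Flavonoid synthesis genes had 8 of 12 lower and none higher, with a median of -0.77, while 12.7% of all genes tested were lower. Without ALL-SORT 4 there were 8 lower and 1 higher (median -0.66), and without other libraries outside the third pair 4 to 8 lower. Chalcone synthase (CHS), the entry enzyme, had 439, 474, 340.0 and 451 CPM in YFP-NEG 1 to 4, against 724, 916, 758 and 1397 CPM in ALL-SORT 1 to 4 (log2 fold change -1.11 ± 0.16, adjusted p = 0.00807). CHI (-1.08), F3H (-0.97) and FLS1 (-0.84), the next enzymes toward flavonols, were lower as well. The groups of these 4 genes did not overlap, and ALL-SORT 4 was the highest library for each. LDOX, on the anthocyanin branch, behaved otherwise: it had 69.2, 48.1, 36.8 and 63.9 CPM in YFP-NEG 1 to 4, against 34.9, 32.2, 32.1 and 97.9 CPM in ALL-SORT 1 to 4. Its log2 fold change was 0.29 with all libraries (adjusted p = 0.367), and without ALL-SORT 4 it was higher in YFP-NEG by 0.60 (adjusted p = 0.00780).

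**Figure D2:**
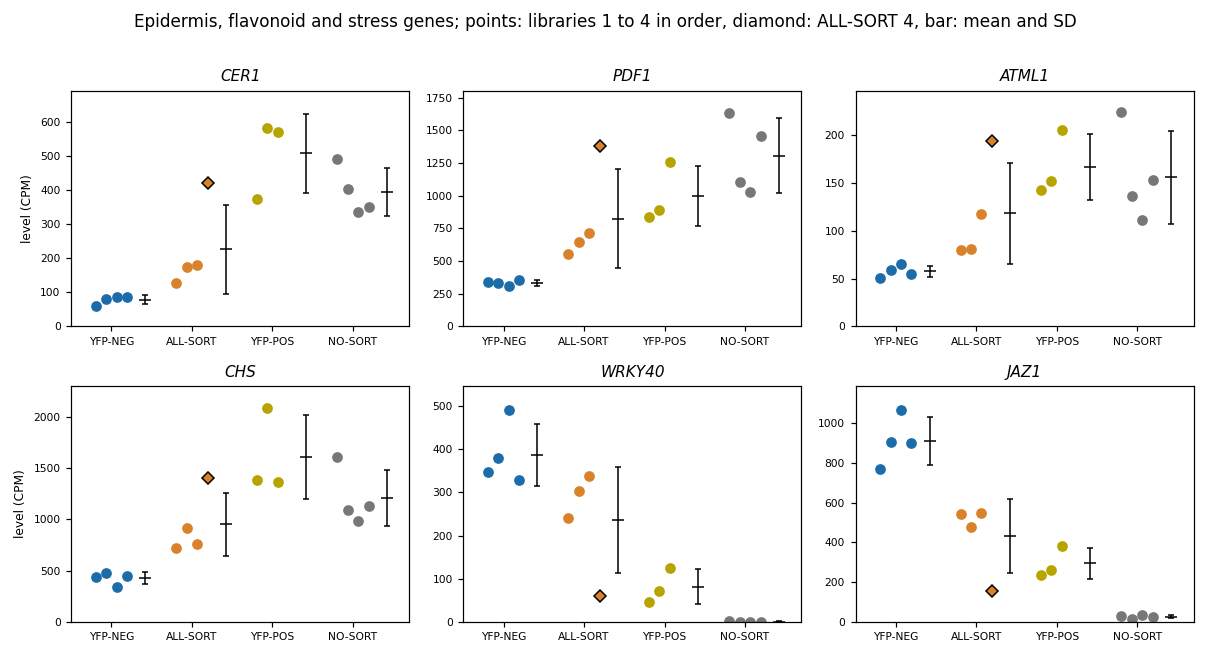
Level in CPM of 6 genes in each library of YFP-NEG, ALL-SORT, YFP-POS and NO-SORT, with mean and SD beside the points and a diamond for ALL-SORT 4. For CER1, PDF1, ATML1 and CHS ALL-SORT 4 is the highest ALL-SORT library, and for WRKY40 and JAZ1 it is the lowest; in all 6 panels it lies on the side of NO-SORT.

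Genes of light harvesting and carbon fixation differed less. All 45 were tested, 9 were lower and none higher, with a median of -0.21, while 12.7% of all genes tested were lower. Without ALL-SORT 4 there were 22 lower (median -0.32), whereas other scalings gave 2 to 6 and the fit without pairing gave 2, so this count depends on the processing. RCA, which activates Rubisco, had 593, 640.3, 483 and 729 CPM in YFP-NEG 1 to 4, against 733, 1016, 900.3 and 1026 CPM in ALL-SORT 1 to 4, without overlap (log2 fold change -0.58 ± 0.14, adjusted p = 0.0263). The light-harvesting gene LHCB1.5 was lower, at -0.62 ± 0.14 (adjusted p = 0.0195), though close copies of it may have shared reads. LHCB1.5 averaged 484 ± 73.3 CPM in YFP-NEG, 750 ± 110 CPM in ALL-SORT and 408 ± 95.7 CPM in YFP-POS (SD), so ALL-SORT was highest. YFP-POS was lower still for RCA, at 425 ± 49.5 CPM (SD, n = 3), so ALL-SORT lay above both fractions.

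Cell cycle genes showed no common direction, and over all genes tested 12.7% were lower and 6.17% higher. Of 13 DNA replication genes 3 were lower and none higher, all of them subunits of the replicative helicase. MCM4 had 48.9, 51.0, 42.0 and 46.5 CPM in YFP-NEG 1 to 4, against 85.6, 65.9, 94.9 and 116 CPM in ALL-SORT 1 to 4, without overlap (log2 fold change -0.91 ± 0.16, adjusted p = 0.0103). MCM5 (-0.56) and MCM7 (-0.48) were the others, and MCM7 was not called with library totals. Leaving out each library outside the third pair gave 0 to 4 lower replication genes. Of 19 mitosis genes 2 were lower and 2 higher, against 0 to 2 lower and 0 to 5 higher without each library outside the third pair. The mitotic kinase CDKB2;1 (-0.49 ± 0.12, adjusted p = 0.0249) and the anaphase activator CDC20.1 (-0.42 ± 0.12, adjusted p = 0.0372) were lower, the second not with upper-quartile or total-count scaling. The cyclin CYCB2;2 (0.44 ± 0.10, adjusted p = 0.0233, 0.138 without pairing) and the cell plate kinesin HINKEL (0.58 ± 0.16, adjusted p = 0.0416, 0.224 without pairing) were higher. Of 16 meiosis genes tested, the chromosome axis gene ASY1 was higher (1.0 ± 0.28, adjusted p = 0.0385, 0.0529 without pairing) and the other 15 were not called.

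Among genes of inflorescence and floral meristems, those called were higher in YFP-NEG. Of 18 such genes 17 were tested, 4 were higher and none lower, with a median of 0.18, against 6.17% higher over all genes. Without ALL-SORT 4, 7 were higher and 1 was lower, without each other library outside the third pair 1 to 7 were higher, and without pairing 2 were. FRUITFULL (FUL), a MADS-domain factor of inflorescence meristems and carpel valves, had 134, 125, 133 and 124 CPM in YFP-NEG 1 to 4, against 88.1, 99.7, 88.0 and 95.8 CPM in ALL-SORT 1 to 4. AGL24, a MADS-domain promoter of flowering, had 42.3, 35.6, 41.5 and 38.3 CPM in YFP-NEG 1 to 4, against 23.7, 25.3, 29.3 and 29.9 CPM in ALL-SORT 1 to 4. Neither gene had overlapping groups, and the log2 fold changes were 0.48 ± 0.11 for FUL (adjusted p = 0.0212) and 0.55 ± 0.12 for AGL24 (adjusted p = 0.0170).

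TFL1, which keeps the shoot meristem from turning into a flower, had 23.1, 24.9, 63.2 and 27.4 CPM in YFP-NEG 1 to 4, against 12.5, 14.5, 40.5 and 15.6 CPM in ALL-SORT 1 to 4. The third library was by far the highest in both groups, so the ranges overlapped while every pair differed the same way. The paired log2 fold change was 0.78 ± 0.11 (adjusted p = 0.00797), and without pairing the adjusted p was 0.248. The homeobox gene KNAT6 was likewise higher in each pair (0.51 ± 0.11, adjusted p = 0.0208, and 0.0578 without pairing). AP1, read from the mutant gene or the fusion transgene, had 189, 175, 170.3 and 157 CPM in YFP-NEG 1 to 4, against 164, 169, 178 and 168 CPM in ALL-SORT 1 to 4, with overlapping groups (log2 fold change 0.03 ± 0.11, adjusted p = 0.850). CAL differed by 0.55 ± 0.17 (adjusted p = 0.0568, and 0.0461 without ALL-SORT 4).

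Petal and stamen genes were called in both directions. Of 18, 16 were tested, with 3 higher, 3 lower and a median of 0.06, and 1 to 3 were called each way without each library outside the third pair. Shares over all genes tested were 6.17% higher and 12.7% lower. PISTILLATA (PI), which specifies petals and stamens, had 231, 188, 189.8 and 195 CPM in YFP-NEG 1 to 4, against 161, 138, 139.8 and 149.8 CPM in ALL-SORT 1 to 4, without overlap (log2 fold change 0.46 ± 0.11, adjusted p = 0.0230). Its partner AP3 differed by 0.24 ± 0.12 (adjusted p = 0.177) and was not called. DYT1, an early regulator of the tapetum, the nourishing layer of the anther, had 6.84, 4.72, 5.66 and 5.33 CPM in YFP-NEG 1 to 4, against 2.86, 2.57, 1.77 and 2.1 CPM in ALL-SORT 1 to 4, again without overlap (log2 fold change 1.29 ± 0.23, adjusted p = 0.0117). TDF1, which acts after DYT1, was higher by 1.62 ± 0.33 (adjusted p = 0.0160), with YFP-NEG 4 the highest at 10.6 CPM.

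The 3 lower genes of that list were receptor kinases of anther cell fate that are also active elsewhere in the flower. EMS1 had 55.3, 54.1, 46.5 and 49.4 CPM in YFP-NEG 1 to 4, against 108, 77.2, 97.1 and 119 CPM in ALL-SORT 1 to 4 (log2 fold change -0.95 ± 0.14, adjusted p = 0.00797). BAM1 had 144, 157, 139.6 and 127 CPM in YFP-NEG 1 to 4, against 234, 263, 311 and 363 CPM in ALL-SORT 1 to 4 (log2 fold change -1.02 ± 0.15, adjusted p = 0.00821). BAM2 was lower, at -0.70 ± 0.12 (adjusted p = 0.00987). None of the 3 had overlapping groups, and their YFP-POS means were 185 ± 13.8 CPM for EMS1, 334 ± 39.2 CPM for BAM1 and 217 ± 27.0 CPM for BAM2 (SD, n = 3), above both YFP-NEG and ALL-SORT.

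Of 16 tapetum and pollen wall genes 11 were tested, 3 were higher and 1, LAP6, was lower, against 6.17% and 12.7% over all genes. Their median was 0.51, and 0.26 without ALL-SORT 4. Without each library outside the third pair, 0 to 2 were higher, and without pairing 2 were. Their summed level was 99.3, 76.9, 93.5 and 187 CPM in YFP-NEG 1 to 4, against 71.1 to 87.1 CPM in ALL-SORT. ACOS5, a fatty acyl-CoA synthetase for pollen wall sporopollenin, had 5.49, 2.87, 7.80 and 23.3 CPM in YFP-NEG 1 to 4, against 3.17, 1.96, 5.05 and 4.34 CPM in ALL-SORT 1 to 4. YFP-NEG 4 was far above the rest, and the ranges overlapped (log2 fold change 1.18 ± 0.34, adjusted p = 0.0428, 0.113 without pairing). NO-SORT varied as widely, at 9.65 ± 8.12 CPM (SD, n = 4). Without ALL-SORT 4 the ACOS5 log2 fold change was 0.67 (adjusted p = 0.0413). It was called in 1 of the 8 fits that left out a library.

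Cytokinin genes had 3 of 13 tested higher and none lower (median 0.20), against 6.17% higher over all genes. Between 0 and 5 of them were higher without each library outside the third pair. ARR5, a response regulator that cytokinin induces, had 17.43, 13, 14.7 and 8.59 CPM in YFP-NEG 1 to 4, against 9.05, 10.6, 8.91 and 6.0 CPM in ALL-SORT 1 to 4. Each pair had the higher value in YFP-NEG while the ranges overlapped (log2 fold change 0.63 ± 0.16, adjusted p = 0.0311). ARR8 (0.62 ± 0.16, adjusted p = 0.0292) and AHP6, a pseudo-phosphotransfer protein that inhibits cytokinin signalling (0.73 ± 0.21, adjusted p = 0.0431), were the others. AHP6 was not called without ALL-SORT 4 (adjusted p = 0.0680), and none of the 3 was called without pairing, with adjusted p-values of 0.0981 for ARR5, 0.155 for ARR8 and 0.0585 for AHP6.

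**Figure D3:**
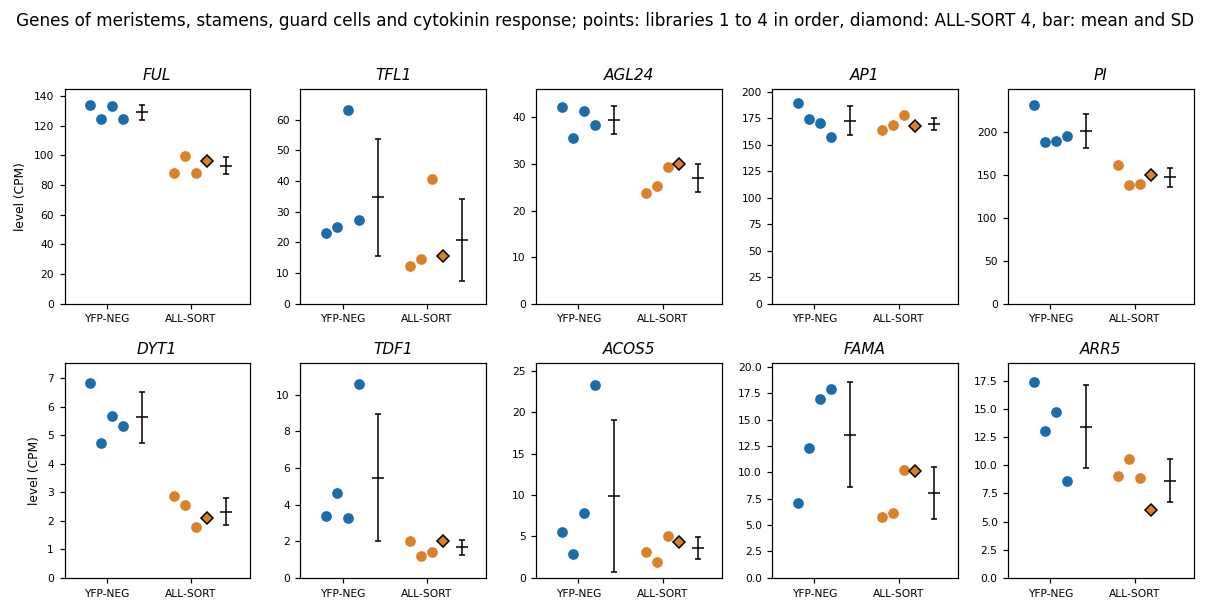
Level in CPM (linear axes from 0) of 10 genes of meristems, stamens, guard cells and cytokinin response in each YFP-NEG (left, blue) and ALL-SORT (right, orange) library, with mean and SD and a diamond for ALL-SORT 4. FUL, AGL24, PI, DYT1 and TDF1 are apart, whereas TFL1, AP1, ACOS5, FAMA and ARR5 overlap between the groups.

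Genes that respond to wounding and stress, which protoplast preparation induces, were much less abundant in ALL-SORT 4 than in the other 7 libraries. The 22 genes summed to 11841 to 15883 CPM in YFP-NEG, against 10088, 13568, 13939 and 3045 CPM in ALL-SORT 1 to 4, and 247 to 397 CPM in NO-SORT. All were tested, 2 were higher in YFP-NEG and none was lower (median 0.61), against 6.17% higher over all genes. Without ALL-SORT 4 the median was 0.19, with 6 higher and 1 lower, and without each other library outside the third pair 0 to 6 were higher. JAZ1, a repressor of jasmonate signalling that jasmonate itself induces, had 769.6, 903, 1068 and 902 CPM in YFP-NEG 1 to 4, against 543, 477, 548 and 155 CPM in ALL-SORT 1 to 4. It was above every ALL-SORT library in each YFP-NEG library (log2 fold change 1.22 ± 0.30, adjusted p = 0.0274), and the log2 fold change without ALL-SORT 4 was 0.80 (adjusted p = 3.13e-04). DREB2A, a factor of drought and heat response, was the second, at 1.05 ± 0.32 (adjusted p = 0.0495) and 0.60 without ALL-SORT 4 (adjusted p = 0.00172). Neither gene was called without pairing (adjusted p = 0.0528 for JAZ1 and 0.186 for DREB2A). WRKY40, a factor of defence response, had 348, 379, 491 and 329 CPM in YFP-NEG 1 to 4, against 241, 303, 339 and 60.6 CPM in ALL-SORT 1 to 4. It was not called with all libraries (0.93, adjusted p = 0.0739) and was higher in YFP-NEG without ALL-SORT 4 (0.47, adjusted p = 0.00513). The early response gene RRTF1 was called in neither fit (0.61, adjusted p = 0.191, and 0.16, adjusted p = 0.282). What part preparation had in the differences between the groups was not tested.

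Among vascular genes, 2 phloem genes differed more by library number than by sort. Of 12, 11 were tested and 1, the cambium receptor PXY, was lower (-0.62 ± 0.18, adjusted p = 0.0476), against 12.7% lower over all genes. The PXY call was not made with RLE, upper-quartile or total-count scaling. PXY averaged 54.0 ± 7.33 CPM in YFP-NEG, 85.7 ± 25.3 CPM in ALL-SORT and 52.5 ± 8.44 CPM in YFP-POS (SD). ALL-SORT thus lay above both fractions for PXY. SUC2, the sucrose loader of phloem companion cells, had 12.6, 15.2, 42.7 and 18.2 CPM in YFP-NEG 1 to 4, against 12.6, 17.6, 59.3 and 18.7 CPM in ALL-SORT 1 to 4 (log2 fold change -0.18 ± 0.13, adjusted p = 0.325). The phloem regulator APL had 4.52, 6.86, 20.6 and 8.15 CPM in YFP-NEG 1 to 4, against 4.41, 4.33, 17.3 and 7.62 CPM in ALL-SORT 1 to 4 (log2 fold change 0.27 ± 0.17, adjusted p = 0.286). For both genes the third library was the highest in each group. Library 3 thus had more SUC2 and APL transcript in both sorts, as it had more TFL1. SEOR1, another gene of this list, was also highest in library 3, at 20.7 CPM in YFP-NEG and 31.1 CPM in ALL-SORT. It was lower in YFP-NEG in all 4 pairs but not called (log2 fold change -0.43, adjusted p = 0.0714).

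**Figure D4:**
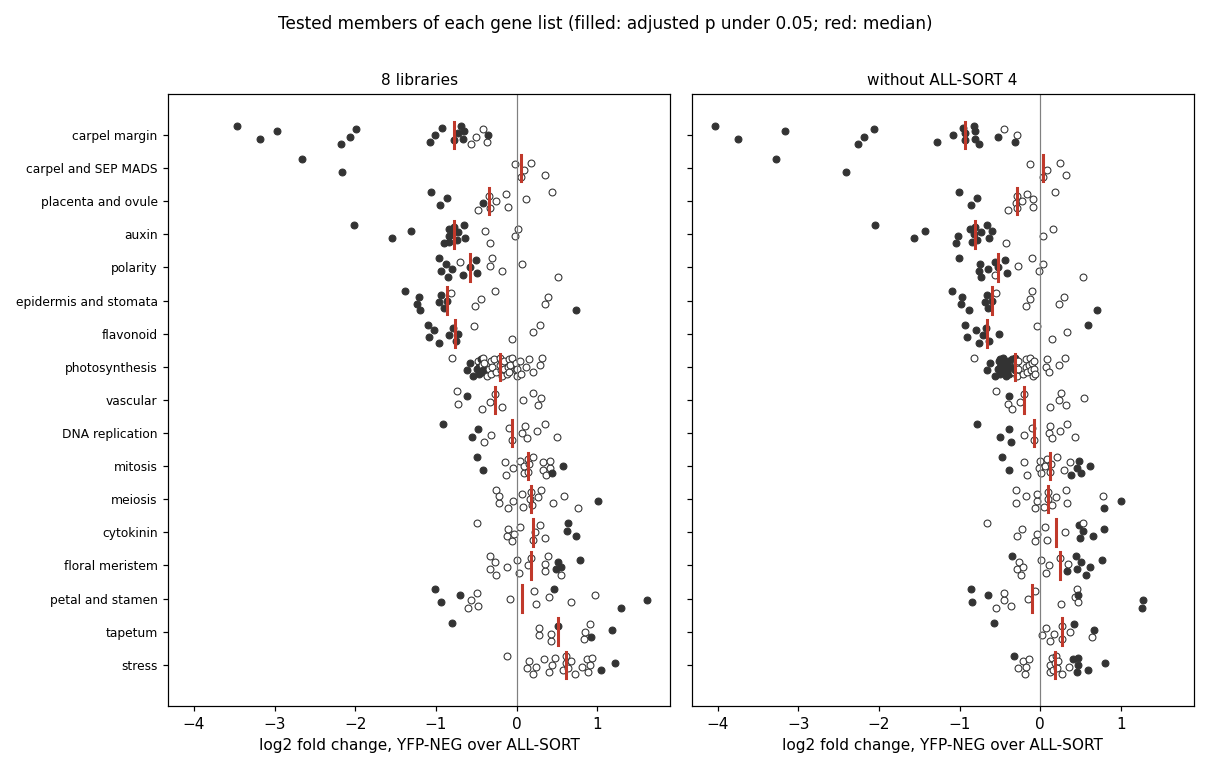
Log2 fold change of YFP-NEG over ALL-SORT for every tested gene of 17 lists, with all 8 libraries (left) and without ALL-SORT 4 (right). Filled points have an adjusted p under 0.05, open points do not, and red bars mark medians. Carpel margin, auxin, epidermis, flavonoid and polarity genes lie mostly below 0 in both panels, as do placenta and ovule and photosynthesis genes. The stress median moves from 0.61 to 0.19.

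A rule picked 12 called genes each way by the size of the fold change. They had to be called alike without ALL-SORT 4, to differ the same way in all 4 pairs, and to average 10 CPM or more where they were higher. The size, direction and calls of their differences thus follow from the rule and only describe these genes. Of the 12 lower genes, HEC2, SHP1, CRC and STY1 are described above. Among the rest, the locus AT4G16230 had 2.07, 2.80, 2.39 and 3.55 CPM in YFP-NEG 1 to 4, against 12.2, 17.1, 8.83 and 9.86 CPM in ALL-SORT 1 to 4 (log2 fold change -2.11 ± 0.24, adjusted p = 0.00797). PRN, the pirin that binds a G-protein subunit, had 1.61, 4.5, 2.70 and 7.63 CPM in YFP-NEG 1 to 4, against 17.8, 23.2, 13.9 and 11.6 CPM in ALL-SORT 1 to 4 (log2 fold change -2.11 ± 0.39, adjusted p = 0.0122). Both were apart between groups and resembled the HECATE genes in having YFP-POS means, 68.3 ± 24.1 and 106 ± 19.0 CPM (SD, n = 3), far above ALL-SORT. CEL2, annotated as a cellulase, had 34.5, 33.5, 26.3 and 40.3 CPM in YFP-NEG 1 to 4, against 111, 103, 90.9 and 115 CPM in ALL-SORT 1 to 4, both tightly grouped (log2 fold change -1.64 ± 0.11, adjusted p = 0.00120). It was called in 7 of the 8 fits that left out a library.

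The amino acid transporter gene CAT8 (-1.61 ± 0.17, adjusted p = 0.00797), AT5G62210 (-1.54 ± 0.19, adjusted p = 0.00797) and HB-3, the homeobox gene also called STIMPY or WOX9 (-1.51 ± 0.19, adjusted p = 0.00797), were lower as well. AT3G43690, an annotated pseudogene, had 11, 7.45, 8.49 and 7.03 CPM in YFP-NEG 1 to 4, against 23.0, 17.8, 21.8 and 56.2 CPM in ALL-SORT 1 to 4. AT3G23450 had 3.55, 4.79, 3.27 and 2.22 CPM in YFP-NEG 1 to 4, against 5.34, 7.30, 10.7 and 26.7 CPM in ALL-SORT 1 to 4. These last 2 had their highest value in ALL-SORT 4, toward the NO-SORT means of 63.5 ± 4.77 and 40.3 ± 4.92 CPM (SD, n = 4), and their log2 fold changes were -1.22 and -0.97 without ALL-SORT 4, against -1.65 and -1.59 with it.

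The 12 higher genes had smaller changes, from 1.78 for AT3G28600 down to 1.17 for AT5G41740. TSA1, which encodes a protein that binds the cell division regulator TONSOKU, had 68.5, 67.2, 96.0 and 119 CPM in YFP-NEG 1 to 4, against 44.4, 27.0, 39.5 and 39.7 CPM in ALL-SORT 1 to 4 (log2 fold change 1.21 ± 0.16, adjusted p = 0.00797). FUM2, the cytosolic fumarase, had 11.9, 16.0, 13.3 and 18.1 CPM in YFP-NEG 1 to 4, against 5.65, 7.30, 8.83 and 3.72 CPM in ALL-SORT 1 to 4 (log2 fold change 1.27 ± 0.26, adjusted p = 0.0165). Both were apart between groups. WRKY46, a defence response factor, had 627, 557, 589.7 and 498 CPM in YFP-NEG 1 to 4, against 394, 230.4, 325 and 69.3 CPM in ALL-SORT 1 to 4 (log2 fold change 1.39 ± 0.32, adjusted p = 0.0235, and 0.94 without ALL-SORT 4). Its NO-SORT mean was 2.79 ± 1.21 CPM (SD, n = 4), and ALL-SORT 4 was again the lowest of the 8 libraries.

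AT1G56660 had 100.0, 93.5, 186 and 101 CPM in YFP-NEG 1 to 4, against 77.0, 38.9, 49.9 and 18.5 CPM in ALL-SORT 1 to 4 (log2 fold change 1.51 ± 0.29, adjusted p = 0.0143), with YFP-NEG 3 the highest. AT1G33430 (1.37) and AT5G62080 (1.42) had their highest value in YFP-NEG 4, as ACOS5 did, at 56.5 and 30.5 CPM. ALL-SORT 4 was the lowest of the 8 libraries for AT3G28600, ZCF37 (1.33), the transcribed pseudogene AT3G48650 (1.3) and AT5G41740. AT5G61940 (1.46) and JAZ1 completed the 12. WRKY46, ZCF37, AT3G48650, AT5G61940, AT5G62080 and AT5G41740 were not called without pairing, with adjusted p-values of 0.0792, 0.0952, 0.0638, 0.110, 0.0849 and 0.0528 in that order, nor was JAZ1 (0.0528).

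ALL-SORT is not selected on YFP by its label, so its level can be set against those of YFP-NEG and YFP-POS. For each called gene of a list the distance of ALL-SORT from YFP-NEG was divided by the distance of YFP-POS from YFP-NEG within replicates 1 to 3, so that 0% is the YFP-NEG level and 100% the YFP-POS level. These values are a description, since the genes were picked by the same YFP-NEG and ALL-SORT libraries. The 15 carpel margin genes had medians of 18.9%, 17.38% and 17.6% in replicates 1, 2 and 3. The 8 flavonoid genes had medians of 24.9%, 28.4% and 34.9%, and the 8 epidermal genes 29.4%, 33.9% and 39.4%. The epidermal genes ranged from -1.97% to 52.1%, 18.8% to 268% and 19.8% to 129.5% in replicates 1, 2 and 3. The 13 auxin genes had medians of 29.5%, 23.9% and 40.1%. Their ranges were also wide, at -281% to 85.6%, -238% to 49.0% and -187% to 248% in replicates 1, 2 and 3. The 9 polarity genes had medians of 116%, 54.7% and 86.1%, with wide ranges of -62.0% to 254.7% in replicate 1, -43.4% to 628% in replicate 2 and 40.4% to 336% in replicate 3.

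**Figure D5:**
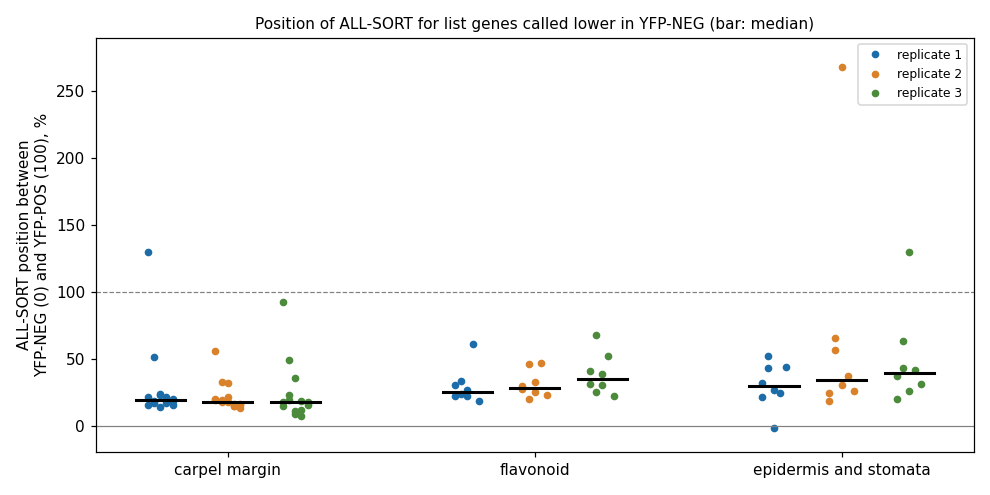
Position of the ALL-SORT level on the way from YFP-NEG (0%) to YFP-POS (100%), in percent, for each gene called lower of the carpel margin, flavonoid and epidermis lists in replicates 1, 2 and 3. Points are genes and bars are medians. Margin genes gather near 18.9%, 17.38% and 17.6%, with LRP1 far above at up to 129.9%. Epidermal medians lie higher at 29.4% to 39.4%, with values up to 268%.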

How the data were processed

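RNA was sequenced from strand-specific libraries with single-end reads of 125 cycles, per the labels' protocols, which give a RIN above 7.3. The authors deposited whole-number read counts per locus, 33602 loci in each of 2 tables, 1 table for YFP-NEG and YFP-POS and 1 for ALL-SORT and NO-SORT, and these were joined by locus. The submitters' processing notes name TAIR10, TopHat2 2.0.10, HTSeq and Cufflinks 2.2.1, with no role given, and neither the strand setting of the counting nor the joining of lanes is stated. Symbols came from RefSeq TAIR10.1 (32835 loci, 97.7%).

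The 8 libraries were fitted in edgeR 4.0.16 (R 4.3.3) by quasi-likelihood, using the replicate number as a block, filterByExpr, TMM scaling and Benjamini-Hochberg adjustment. SE was derived from the F statistic, as |log2 fold change| over its square root. Levels are CPM after TMM scaling over all 15 libraries. Pairing was checked by the correlation of deviations from group means across genes, which was 0.123 to 0.351 for the 4 same-numbered pairs and -0.312 to 0.145 for other numbers. With a limit of 0.1 the numbers were taken as pairs. YFP-NEG 1 with ALL-SORT 4, of unlike numbers, also exceeded this limit (0.145) and lay above the same-numbered pair 4 (0.123). The check therefore does not set pair 4 apart. Genes are not independent in these correlations. No libraries were near-identical. The script was tested on simulated counts.

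The compared groups, gene lists and genes were chosen with earlier results of these data known. Named are list members, SHP2, AP1, CAL and the 12 genes each way picked by the rule given in the report. Cuticle, WRKY, JAZ and organelle lists were added after values were seen. Alternatives were other scalings and filters, DESeq2 1.42.0, limma-voom of limma 3.58.1, no block, and each library left out.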

Additional observations from a re-analysis of the deposited data

Results flagged for a closer look

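In a group of 4 libraries, a single library far from the other 3 was singled out by Dixon's criterion. Of 260 groups examined, 14 met it, and chance alone gives about 1 in 20.

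In YFP-NEG, library 3 stood out for 4 genes. TFL1 was 63.2 CPM there, against 23.1 to 27.4 CPM in the other 3 libraries, and AT1G56660 was 186 CPM, against 93.5 to 101 CPM. ZCF37 was 16.6 CPM, against 13.3 to 13.7 CPM, and FIL was low at 82.9 CPM, against 118 to 124 CPM. CUC2 was high in YFP-NEG 2 at 12.8 CPM, against 7.77 to 8.52 CPM, and PI was high in YFP-NEG 1 at 231 CPM, against 188 to 195 CPM.

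In ALL-SORT, the carpel genes SHP2 and HEC3 were high in library 2, at 11.6 CPM against 6.90 to 7.58 CPM for SHP2 and 8.18 CPM against 3.86 to 4.56 CPM for HEC3. ANT was high in library 1 at 313 CPM, against 245 to 252 CPM. Library 3 was high for TFL1 at 40.5 CPM, against 12.5 to 15.6 CPM, and for the phloem gene SUC2 at 59.3 CPM, against 12.6 to 18.7 CPM. Library 4 was high for CHI at 127 CPM, against 58.8 to 70.4 CPM, for LDOX at 97.9 CPM, against 32.1 to 34.9 CPM, and for AT3G43690 at 56.2 CPM, against 17.8 to 23.0 CPM.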

How the results depend on the processing

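Without the replicate block, that is without pairing, 2532 genes were called in place of 3522, 494 of them higher, and 2456 were called in both fits with the same direction; with ALL-SORT 4 left out as well, 2219 were called, 442 of them higher and 198 at least 2-fold. At an adjusted p under 0.01, 510 were called, 39 higher, 471 lower and 133 at least 2-fold. Library totals and upper-quartile scaling gave 1618 and 1672 higher genes. Leaving out each library gave 1 to 4555 calls, 0 to 1675 higher, 1 to 2880 lower and 1 to 337 at least 2-fold, and SHP2 lay between -2.41 and -2.0 on the log2 scale. The SHP2 difference was not called without YFP-NEG 3 (-2.16, adjusted p = 0.0898) and without ALL-SORT 3 (-2.16, adjusted p = 0.0900). The cause of the loss of calls without the third pair was not tested. Over the 129 named genes, 1906 of 2449 recomputed values kept direction and side of the threshold, 506 lost the call, 27 gained one and 10 changed sign. All 10 belong to genes that were not called: AG was 0.0057 with RLE scaling and with DESeq2, 0.032 with library totals and 0.041 after upper-quartile scaling, and lay between -0.13 and 0.060 as each library was left out, whereas AP1 lay between -0.025 and 0.071. Wide errors were found for genes with few reads, such as HEC3, BEE1, WAG1 and WAG2, and also for SHP1 (SE 0.42).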

Other observations

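Some transcripts of the organelle genomes were called in YFP-NEG against ALL-SORT, and over all genes tested 6.17% were higher and 12.7% lower. Of 133 plastid loci 81 were tested, 12 were higher and 5 lower, with a median log2 fold change of 0.36. Of 146 mitochondrial loci 34 were tested, 3 were lower and none higher, with a median of -0.42. Plastid loci summed to 4637 to 7551 CPM in YFP-NEG, against 4830 to 6219 CPM in ALL-SORT, and mitochondrial loci to 6041 to 11219 CPM in YFP-NEG, against 5107 to 10926 CPM in ALL-SORT, so both ranges overlapped. Without pairing, 2 plastid loci were higher and 2 lower, and 3 mitochondrial loci were lower. Without YFP-NEG 3 or ALL-SORT 3, no organelle locus was called. The organelle lists were added after values had been seen and are only a description.

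Of 67 WRKY factors, a family active in defence, 40 were tested, 5 were higher and 1 lower, with a median of 0.05. All genes tested had 6.17% higher and 12.7% lower. Of 10 JAZ repressors 9 were tested, JAZ1 was higher and none lower, with a median of 0.58. The JAZ genes summed to 1544 to 2250 CPM in YFP-NEG, against 1170, 1338, 1505 and 546 CPM in ALL-SORT 1 to 4. Without ALL-SORT 4 the JAZ median was 0.25, with 2 higher, and the WRKY median -0.02, with 5 higher and 4 lower. No WRKY or JAZ gene was called without pairing. Both families were added as lists after values had been seen, so these counts are only a description.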
